A study of Mus musculus with 6 samples.

Results

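The genes described here act at the centromere, the chromosome region that spindle fibres hold, and at the cohesion that keeps sister chromatids together there. They are 10 genes: Cenpa, Cenpc1, Cenpe, Cenpf, Sgo2a, Meikin, Aurka, Aurkb, Aurkc and Plk1. They were chosen by name, as all probe sets whose platform gene symbol is 1 of the 10, which gave 17 of the 34945 probe sets that carry a single symbol, and 10 of 18193 genes. Whole gonads of the inbred C57BL/6 strain were profiled on 6 Affymetrix arrays. They were ovary and testis of fetuses (15.5 days postcoitum), neonates (day 1 after birth) and adults (10 weeks old), 1 array each. The labels name no allele or treatment and no number of animals per array. Without replicates, the differences below carry no p-value and no standard error. The study's stated purpose was to find genes for chromosome segregation in the first meiotic division.

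CENP-A, the product of Cenpa, is the histone variant that marks the centromere, and CENP-C (Cenpc1) binds it and carries the kinetochore, the structure that grips spindle fibres. In mitosis sister chromatids part, whereas in the first meiotic division they stay joined at the centromere and move together. Shugoshin 2, the product of Sgo2a, brings a phosphatase to the centromere that shields meiotic cohesin from cleavage, and Meikin works with Plk1 at meiotic kinetochores for the same end. Aurora B corrects wrong attachments as part of the chromosomal passenger complex, Aurora C takes that place in germ cells, and Aurora A acts at spindle poles.

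Each array was scaled to a common 2% trimmed mean. Signals under a floor of 75.3, the median of all scaled signals, were raised to it, so ratios against the floor are lower bounds. Between 11906 and 12661 genes per array lay above the floor. Genes with a 4-fold or larger ratio in either direction are termed called. Quality controls differed between arrays. Gapdh had a 3' to 5' signal ratio of 2.36 in the adult testis and 3.12 in the neonatal ovary, while the remaining 4 arrays had 1.32 to 1.45. The same ratio of Actb did not follow this order, being lowest in adult testis (1.81), highest in fetal ovary (3.78) and 3.28 in neonatal ovary. The added hybridization controls had a geometric mean of 441 in adult testis, 592 in neonatal ovary and 927 to 1152 elsewhere. The 8 spermatid markers were all above the floor in adult testis, with a summed signal of 68781, and at most 1 was above it on any other array, with sums of 155 to 286. Late spermatocyte markers summed to 40536 in adult testis, where H1f6 alone of 8 was at the floor, and to 772 to 1171 elsewhere. The 8 markers of meiotic prophase were all above the floor in fetal ovary, in fetal testis and in adult testis, with sums of 10075 in fetal ovary, 1737 in fetal testis and 17192 in adult testis. In fetal testis all but Sycp3 (578) and Stag3 (540) were near the floor, at 79.9 to 121. In neonatal ovary 7 passed the floor, with a sum of 5652, and in neonatal testis 7, with a sum of 1511. Only 2 passed the floor in adult ovary, with a sum of 278. Oocyte markers above the floor numbered 8 of 9 in neonatal ovary and 9 of 9 in adult ovary, with sums of 14005 and 10811, against sums of 350.0 to 1135 on the other arrays.

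Promoters were set side by side for 4 of the genes. Cenpa was lower in adult than in neonatal testis, and Aurka, Plk1 and Aurkc were higher. For Plk1 the log2 ratio was only 0.51, under the spread of 0.57 between probe sets of a gene. Each window runs from 250 bases before to 50 bases after a RefSeq gene start (GRCm38.p6), 5' to 3' on the gene's strand. Capitals mark letters of the cell cycle element CHR (TTTGAA or TTTAAA) and of the CCAAT box, on either strand.
Cenpa (chr5:30666636-30666935, plus strand): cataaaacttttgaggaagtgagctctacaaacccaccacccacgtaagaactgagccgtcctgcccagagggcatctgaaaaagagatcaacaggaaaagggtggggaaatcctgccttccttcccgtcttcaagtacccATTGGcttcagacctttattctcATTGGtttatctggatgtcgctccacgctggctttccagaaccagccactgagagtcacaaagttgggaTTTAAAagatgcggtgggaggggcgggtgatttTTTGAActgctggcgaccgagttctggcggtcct
Aurka (chr2:172370521-172370820, minus strand): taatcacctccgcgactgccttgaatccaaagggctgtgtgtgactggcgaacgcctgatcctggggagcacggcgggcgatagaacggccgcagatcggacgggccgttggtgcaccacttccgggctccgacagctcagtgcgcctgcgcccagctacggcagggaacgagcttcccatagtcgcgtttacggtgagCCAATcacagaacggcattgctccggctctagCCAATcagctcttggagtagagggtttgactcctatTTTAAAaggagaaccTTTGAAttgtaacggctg
Plk1 (chr7:122159185-122159484, plus strand): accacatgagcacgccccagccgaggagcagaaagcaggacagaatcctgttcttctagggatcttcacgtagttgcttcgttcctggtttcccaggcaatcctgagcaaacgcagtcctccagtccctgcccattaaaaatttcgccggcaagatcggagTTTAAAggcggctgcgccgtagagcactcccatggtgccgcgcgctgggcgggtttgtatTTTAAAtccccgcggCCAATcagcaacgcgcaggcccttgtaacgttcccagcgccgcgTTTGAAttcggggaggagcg
Aurkc (chr7:6995135-6995434, plus strand): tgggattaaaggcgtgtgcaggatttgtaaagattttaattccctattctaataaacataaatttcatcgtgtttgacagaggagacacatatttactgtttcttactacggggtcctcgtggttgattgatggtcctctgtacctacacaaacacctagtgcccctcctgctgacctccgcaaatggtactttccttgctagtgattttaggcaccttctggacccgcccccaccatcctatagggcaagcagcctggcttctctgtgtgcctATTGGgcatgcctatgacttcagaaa
Cenpa, Aurka and Plk1 each held both CHR forms and at least 1 CCAAT box. So did Cenpf, whose window is not printed. Aurkc held 1 CCAAT box, at base 25 counted from the start base as 1, and no CHR letters in this window. The letters TTTGAA began at base 17 in Cenpa, 33 in Aurka and 31 in Plk1. The table held 9 windows for 8 of the 10 genes, with 2 for Sgo2a and none used here for Meikin and Aurkb. A CHR form was present in 6 of the 9, against 27.6% of 32851 promoters of this length, a CCAAT box in 9 of 9, against 37.4%, and both in 6 of 9, against 10.7%. The Myb core CNGTTA was present in 3 of 9, against 23.3%. TTTAAA reads the same on both strands, and no 2 matches overlapped in the members' windows. These are matches of letters only.

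Cenpa and Cenpc1 build the centromere itself, and they differed most in adult testis. Cenpa signals were 1415, 1095 and 850.3 in the fetal, neonatal and adult ovary and 1785, 2082 and 104 in the fetal, neonatal and adult testis. Adult testis lay far below the other 5 arrays, which spanned a range of 2.45-fold. Cenpa was 19.9-fold lower in adult than in neonatal testis (log2 ratio -4.32), and 0.697% of the 14198 genes above the floor on either array had a lower ratio. Adult ovary exceeded adult testis by 8.14-fold. With arrays scaled to the hybridization controls the log2 ratios were -2.82 in testis and 1.90 between the adult gonads, the second under the limit of 2. In whole gonads, fewer cells of a type and less RNA per cell cannot be told apart. These values rest on a single probe set, 1450842_a_at, because the other 2 Cenpa probe sets were under the floor on all 6 arrays. With the mean of all 3 the log2 ratio in testis was -1.44, and Cenpa was not called. Of 9 measured proliferation markers, 8 were above the floor in either testis, and all 8 were lower in adult than in neonatal testis, 4 of them by 4-fold or more (median log2 ratio -2.15). Over all genes 10.3% were called lower in this comparison, and 58.1% of those above the floor on either array had a ratio below 1. With the controls 6 of 9 proliferation markers were lower, none by 4-fold, with a median of -0.42, where 404 of 18193 genes were called lower. The 4 were Mki67, Mcm2, Mcm5 and Ccna2, and Mki67, a marker of cycling cells, had 606 in adult and 3174 in neonatal testis. The part of cell makeup in the Cenpa value was not tested.

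Cenpc1, the other of these genes, had a narrower range. Its signals were 797, 501 and 565 in fetal, neonatal and adult ovary and 926, 605 and 698 in fetal, neonatal and adult testis. The highest array, fetal testis, exceeded the lowest, neonatal ovary, by 1.85-fold. Its log2 ratio in adult over neonatal testis was 0.21, against -4.32 for Cenpa. With the controls Cenpc1 was 3.25-fold higher in adult than in neonatal testis and 2.69-fold lower in adult ovary than in adult testis, against 1.15-fold and 1.24-fold.

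**Figure D1:**
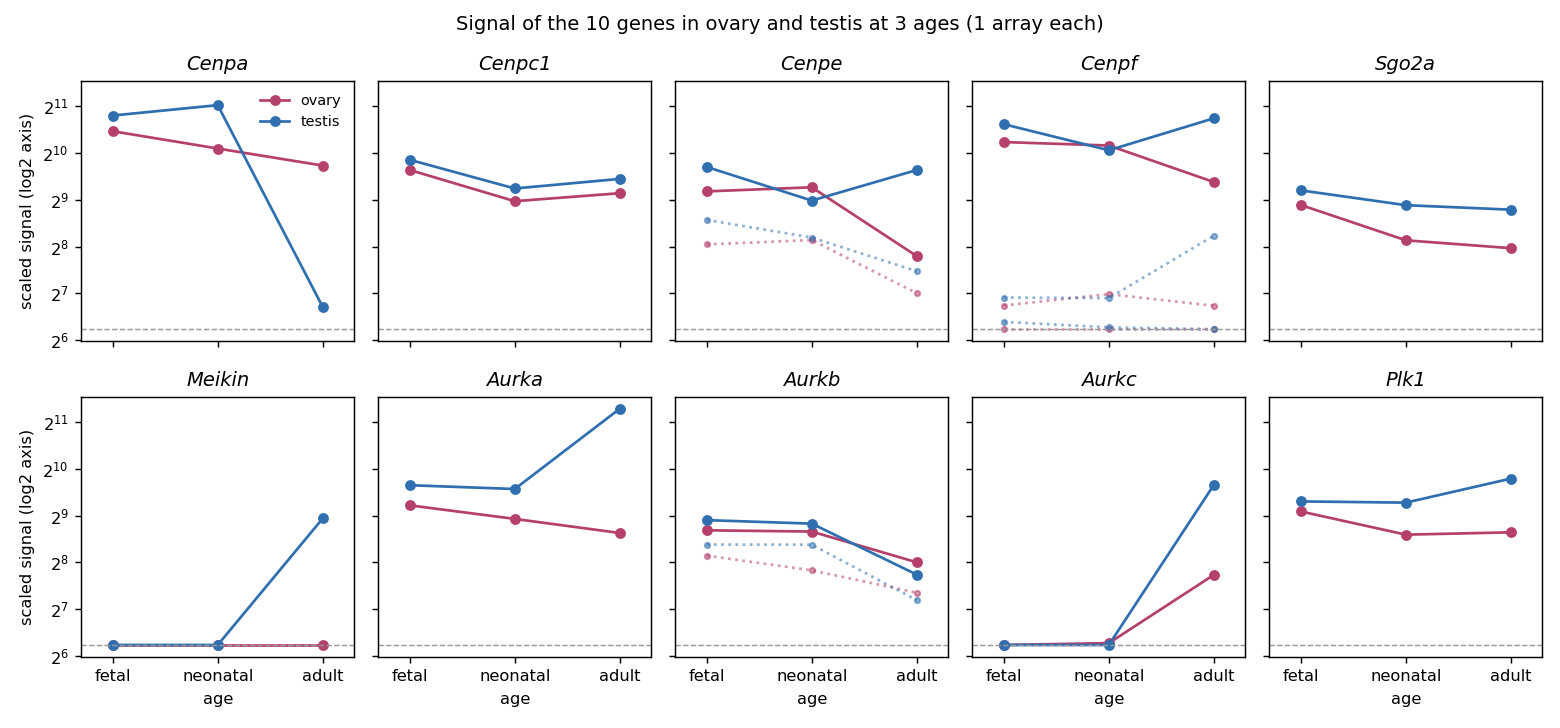
Scaled signal of the 10 genes (log2 axis) at 3 ages in ovary (red) and testis (blue), 1 array per point. Solid lines are the probe set used for the gene, dotted lines its other probe sets above the floor, and the dashed grey line is the floor of 75.3. Cenpa drops to 104 in adult testis, while Meikin, Aurka and Aurkc are highest there.

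Cenpe and Cenpf act at the outer face of the kinetochore. CENP-E is a kinesin that carries chromosomes along spindle fibres, and CENP-F is a large coiled-coil protein of the same layer. Cenpe had 580.0, 616 and 222 in fetal, neonatal and adult ovary and 833, 506 and 797 in fetal, neonatal and adult testis. Cenpf had 1205, 1145 and 666 in the ovaries and 1570.3, 1067 and 1714 in the testes, in the same order of age. For both genes adult ovary was the lowest array and fetal and adult testis were the 2 highest. Cenpe was 2.78-fold lower in adult than in neonatal ovary and 1.57-fold higher in adult than in neonatal testis, and Cenpf was 1.72-fold lower and 1.61-fold higher.

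The probe sets did not all give that picture. The other Cenpe probe set, 1439040_at, was 2.20-fold lower in adult than in neonatal ovary but 1.65-fold lower in adult than in neonatal testis, with signals of 178 and 293. The direction of Cenpe in adult testis therefore depends on the probe set. A further Cenpf probe set, 1452334_at, was 2.52-fold higher in adult than in neonatal testis, with 301 against 119, and 1.19-fold lower in adult than in neonatal ovary, with 106 against 127. The third Cenpf probe set was near the floor, at no more than 83.9 on any array.

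Sgo2a and Meikin protect cohesion at the centromere and differed from each other in pattern. Sgo2a was above the floor on every array, with 474, 281 and 249.99 in fetal, neonatal and adult ovary and 589, 473 and 442 in fetal, neonatal and adult testis. At each age the ovary was lower than the testis, by 1.24-fold, 1.68-fold and 1.77-fold from the youngest to the oldest. Meikin was above the floor in adult testis alone, with a signal of 492. Its unfloored signals on the other 5 arrays were 32.1 to 47.7, and adult testis was at least 6.53-fold higher than neonatal testis and than adult ovary. Meikin was thus at the floor in fetal ovary, where the markers of meiotic prophase were high, and Sgo2a was not higher there than in fetal testis. With the floor at the 75th percentile Meikin was not called. Each of these 2 genes had 1 probe set.

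The 3 Aurora kinases had 3 different patterns. Aurka, with roles at spindle poles, had 596, 488 and 396 in fetal, neonatal and adult ovary and 804, 760 and 2499 in fetal, neonatal and adult testis. Adult testis exceeded the next array, fetal testis, by 3.11-fold. Aurka was 3.29-fold higher in adult than in neonatal testis, under the limit of 4, and 6.31-fold lower in adult ovary than in adult testis. With the controls the first of these was 9.28-fold and was called. Its other probe set was under the floor on all arrays.

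Aurkb had 412, 404 and 256 in fetal, neonatal and adult ovary and 479, 455 and 213 in fetal, neonatal and adult testis. Both adult arrays were lower than the 4 younger ones. Aurkb was 2.13-fold lower in adult than in neonatal testis, though higher with the controls (log2 ratio 0.40), and 1.58-fold lower in adult than in neonatal ovary. Its second probe set, 1451246_s_at, gave 2.28-fold and 1.39-fold in the same directions. Both Aurkb probe sets carry a suffix that marks possible cross-hybridization.

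Aurkc, the Aurora kinase of germ cells, was above the floor with 213 in adult ovary and 808 in adult testis, and with 77.4 in neonatal ovary, next to the floor of 75.3. Fetal ovary, fetal testis and neonatal testis were at the floor, with unfloored signals of 70.1, 41.4 and 72.1. Adult testis was at least 10.7-fold higher than neonatal testis, and adult ovary was 2.75-fold higher than neonatal ovary. Both adult gonads were thus higher than the younger ones. Aurkc had 1 probe set, and it too was not called with the floor at the 75th percentile.

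Plk1, a kinase of mitotic and meiotic entry and of kinetochores, had 545, 386 and 399.8 in fetal, neonatal and adult ovary and 632, 621 and 886 in fetal, neonatal and adult testis. Adult testis was the highest array, 1.43-fold above neonatal testis, and adult ovary was 2.22-fold below adult testis. Neonatal ovary was the lowest. With the controls Plk1 was 4.03-fold higher in adult than in neonatal testis and was called.

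**Figure D2:**
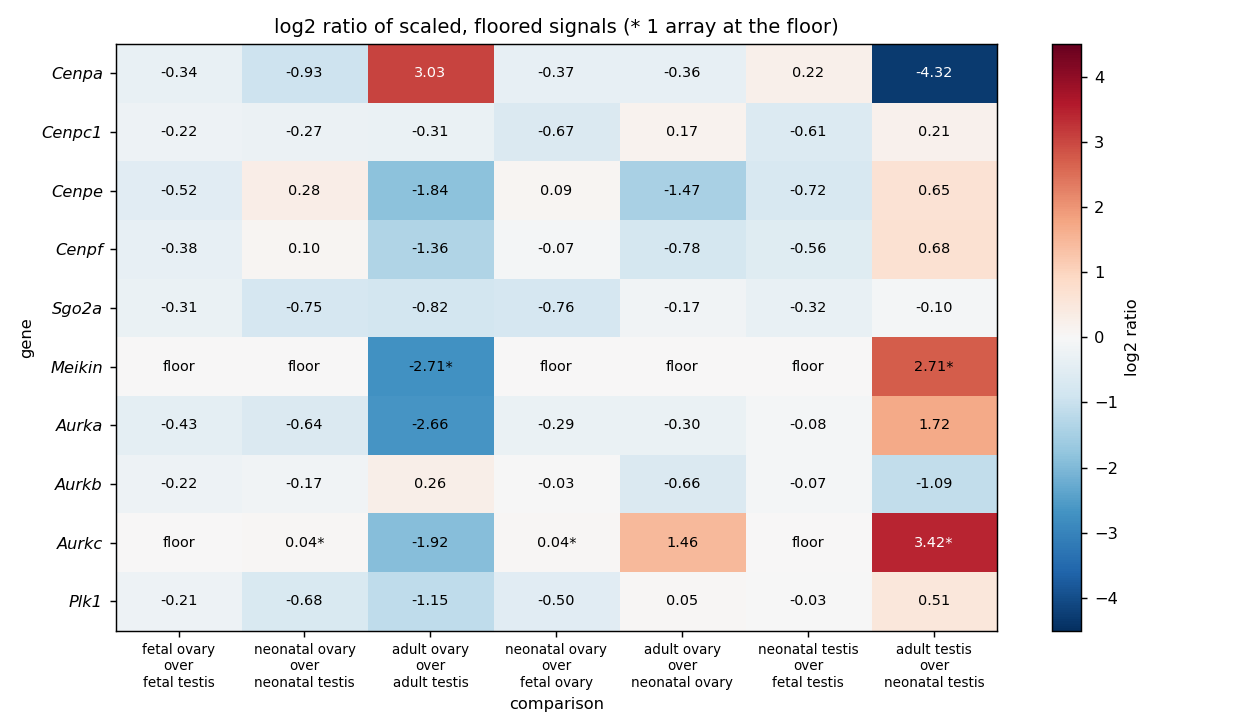
log2 ratios of scaled, floored signals for the 10 genes (rows) in 7 comparisons (columns), red for higher and blue for lower in the first named group. An asterisk marks a ratio with 1 array at the floor, and "floor" marks both arrays there; the fetal and neonatal columns hold no value past 2 or -2.

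The 10 genes were set against all genes in each comparison. In adult testis over neonatal testis, Meikin and Aurkc were called higher, Cenpa was called lower and 7 were not called. Over all genes 10.7% were called higher and 10.3% lower, and among genes above the floor on either array 13.7% and 13.2%, so 2 of 10 and 1 of 10 are near the background. The median log2 ratio of the 10 genes was 0.58, against -0.30 over 14198 genes above the floor on at least 1 of the arrays. The technical spread (SD) on the log2 scale, taken from genes with at least 2 probe sets, was 0.57 here, which covers no variation between animals.

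The scaling of adult testis changed these values. For genes that passed the floor in both testes, the median log2 ratio was -0.50 with the common trimmed mean, -0.37 with quantile normalization, -0.29 with signals as deposited and 0.79 with scaling to the hybridization controls, which called 4054 genes higher and 404 lower instead of 1939 and 1876. With the controls Meikin, Aurkc, Aurka, Cenpe, Cenpf and Plk1 were called higher and Cenpa lower. The call of Cenpe rests on its brightest probe set, and 1439040_at was 1.65-fold lower with the common trimmed mean. Relative to the median of each scaling, under each of the 4 scalings 8 of the 10 genes lay above it and Cenpa and Aurkb below it. Subtracting the median nearly cancels a factor applied to a whole array, so here only quantile normalization could have differed much. Relative to the median, Cenpa lay between -3.83 and -3.61, Aurkb between -0.60 and -0.38, Aurka between 1.94 and 2.42, and Aurkc between 3.62 and 3.92. The unadjusted log2 ratio kept its sign under the 4 scalings for all genes but Sgo2a, at -0.10 to 1.40, and Aurkb, at -1.09 to 0.40.

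**Figure D3:**
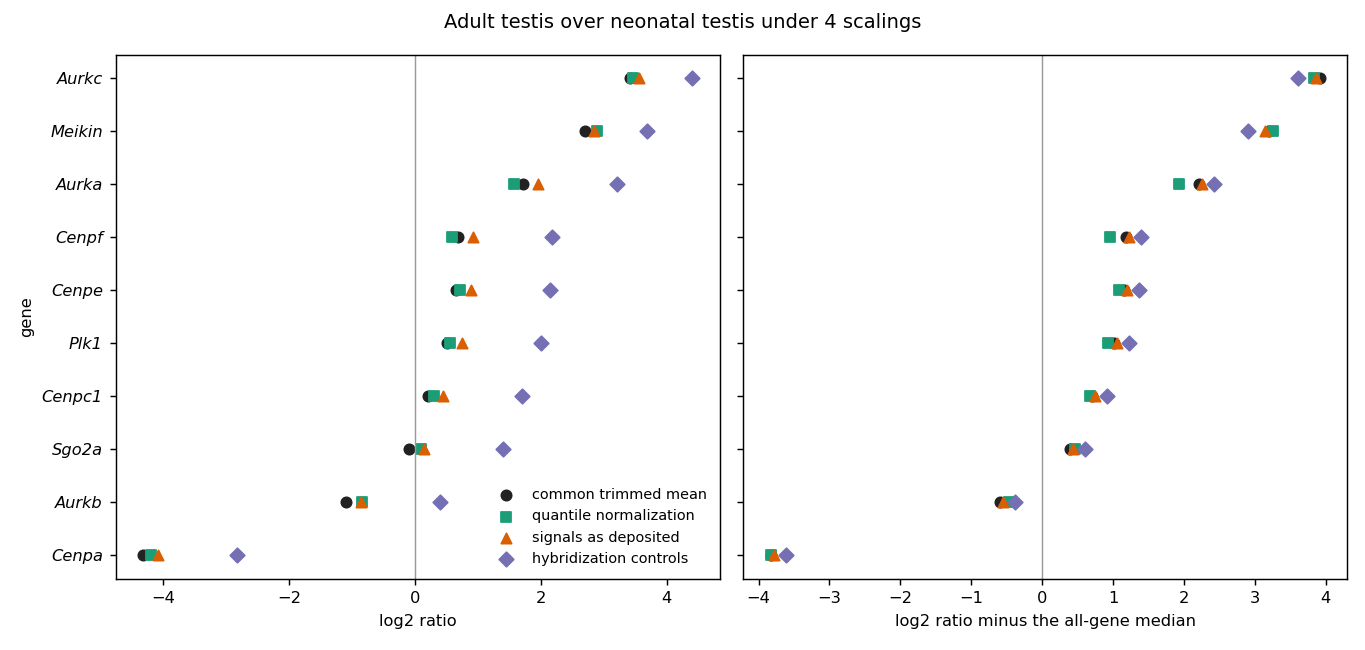
log2 ratio of adult testis over neonatal testis for the 10 genes under 4 scalings, as it stands (left) and minus the median of genes that passed the floor in both testes (right). The controls move the points to the right, least for Meikin and Aurkc. Relative to the median, Aurkc is at the top with 3.62 to 3.92 and Cenpa at the bottom with -3.83 to -3.61 under each scaling. Subtracting the median nearly cancels a factor applied to a whole array, so on the right only quantile normalization could differ much.

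In adult ovary over adult testis, which shares the adult testis array with the previous comparison, Cenpa was called higher and Meikin and Aurka lower. Over all genes 11.9% were called higher and 10.9% lower, and 15.1% and 13.8% of those above the floor on either array. Aurkc and Cenpe lay just under the limit, 3.80-fold and 3.59-fold lower in adult ovary. Aurkc was called with quantile normalization (4.15-fold), and both were called with the controls (8.26-fold and 7.81-fold). The other Cenpe probe set, 1439040_at, was only 1.39-fold lower in adult ovary with the common trimmed mean. The median log2 ratio of the 10 genes was -1.26, against 0.35 over 14349 genes, and 8 of 10 were lower in adult ovary. The exceptions were Cenpa and Aurkb, and Aurkb, 1.20-fold higher, was lower under quantile normalization and under scaling to the controls.

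In fetal ovary over fetal testis, where the meiotic prophase markers differed in summed signal, none of the 10 genes was called. Over all genes 0.192% were called higher and 0.44% lower. The 8 genes above the floor were all lower in fetal ovary, by 1.16-fold (Plk1) to 1.44-fold (Cenpe), also under each of the other 3 scalings. Over all 12595 genes above the floor, 46.6% were lower in fetal ovary and the median log2 ratio was 0.02, against -0.32 for the 8. These ratios were small, and the spread from pairs of probe sets was 0.16 on the log2 scale. Cenpe had the same ratio with both probe sets, -0.52.

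No gene was called in the other 4 comparisons. In neonatal ovary over neonatal testis, where 1.4% of all genes were called higher and 0.962% lower, Cenpa was the lowest with a log2 ratio of -0.93, and Sgo2a, Plk1 and Aurka followed with -0.75, -0.68 and -0.64. With the controls these were -0.32, -0.15, -0.08 and -0.03. In neonatal ovary over fetal ovary, where 0.759% and 0.231% of all genes were called, Sgo2a had -0.76 and Cenpc1 -0.67. Cenpa, Cenpe, Cenpf, Aurka, Aurkb and Aurkc changed sign in that comparison with the scaling. In adult ovary over neonatal ovary, where 1.48% and 1.89% were called, the values ran from -1.47 for Cenpe to 1.46 for Aurkc, and both kept their sign under the 4 scalings. In neonatal testis over fetal testis, where 0.357% and 0.44% were called, 7 of 8 genes above the floor were lower, down to -0.72 for Cenpe, and Cenpa was higher by 0.22. Over all genes above the floor on either array 55.4% were lower. With quantile normalization 5 of the 10 genes were lower and 4 higher. Aurka, Aurkb and Plk1 were at -0.08, -0.07 and -0.03, under the spread between probe sets of 0.22. Aurkb and Plk1 changed sign there with the scaling.

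Partners of these genes were taken from 7 lists with 71 genes, of centromere and kinetochore proteins, passenger complex, cohesion protection, kinase cofactors, polo-like paralogs and proliferation. In adult over neonatal testis, the list of CENP-A loading and constitutive centromere proteins had 1 of 17 measured genes called higher and none lower, with a median log2 ratio of 0.03. Over all genes 10.7% were called higher and 10.3% lower in this comparison. The gene called was Cenpu, 4.47-fold higher with 1727 against 387, whereas its other probe set was at the floor in adult testis with 104 in neonatal testis. The lowest value in the list was that of Cenpm, -1.64, and Cenpb was at the floor in adult testis, both named after their values were seen. The 13 outer kinetochore genes had none called and a median of -0.64. With the controls the medians were 1.52 and 0.86, so their sign or size rests on the scaling.

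In the list of passenger partners, 1 of 6 was called higher, where 10.7% of all genes were. Haspin, the kinase whose mark on histone H3 recruits Aurora B and C to centromeres, had 3840.1 in adult testis and 126 in neonatal testis, a ratio of 30.4. On the other 4 arrays it was at the floor in adult ovary and at 84.6 to 119 elsewhere, so adult testis stood alone. The passenger subunits Incenp, Birc5 and Cdca8, named after their values were seen, were 1.71-fold, 1.35-fold and 1.36-fold lower in adult than in neonatal testis, and all 3 were higher with the controls (log2 ratios 0.72, 1.06 and 1.05). Of the kinase cofactors 2 of 9 were called lower, where 10.3% of all genes were. They were Ajuba at 6.75-fold and Fbxo5, an inhibitor of the anaphase-promoting complex, at least 5.94-fold. None of the 3 polo-like paralogs was called.

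Among 11 partners of cohesion protection, 3 were called lower in adult testis and none higher, with a median of -1.31, where 10.3% of all genes were called lower. With the controls 4054 of 18193 genes were called higher and 404 lower. Of the 11 partners none was then called lower and 2 were called higher, Ppp2r5c and Ppp2r5e (log2 ratios 3.41 and 2.81, named after their values were seen). The median of the 11 was then 0.19. The 3 called lower were subunits of the phosphatase PP2A, which shugoshin binds. Ppp2r1a was 4.31-fold lower, and its 5 probe sets were 3.99-fold to 24.2-fold lower. Ppp2r5a and Ppp2r5d, regulatory subunits, were 6.21-fold and 6.27-fold lower. Sgo1, the shugoshin of mitosis, named after its values were seen, had 234 in adult and 788 in neonatal testis, 3.37-fold lower, while Sgo2a had 442 and 473. With the controls the lower calls of PP2A subunits, Ajuba and Fbxo5 were lost, although each stayed lower, with log2 ratios of -0.61 for Ppp2r1a, -1.14 for Ppp2r5a, -1.15 for Ppp2r5d, -1.26 for Ajuba and -1.54 for Fbxo5. Haspin stayed higher, at 6.42.

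**Figure D4:**
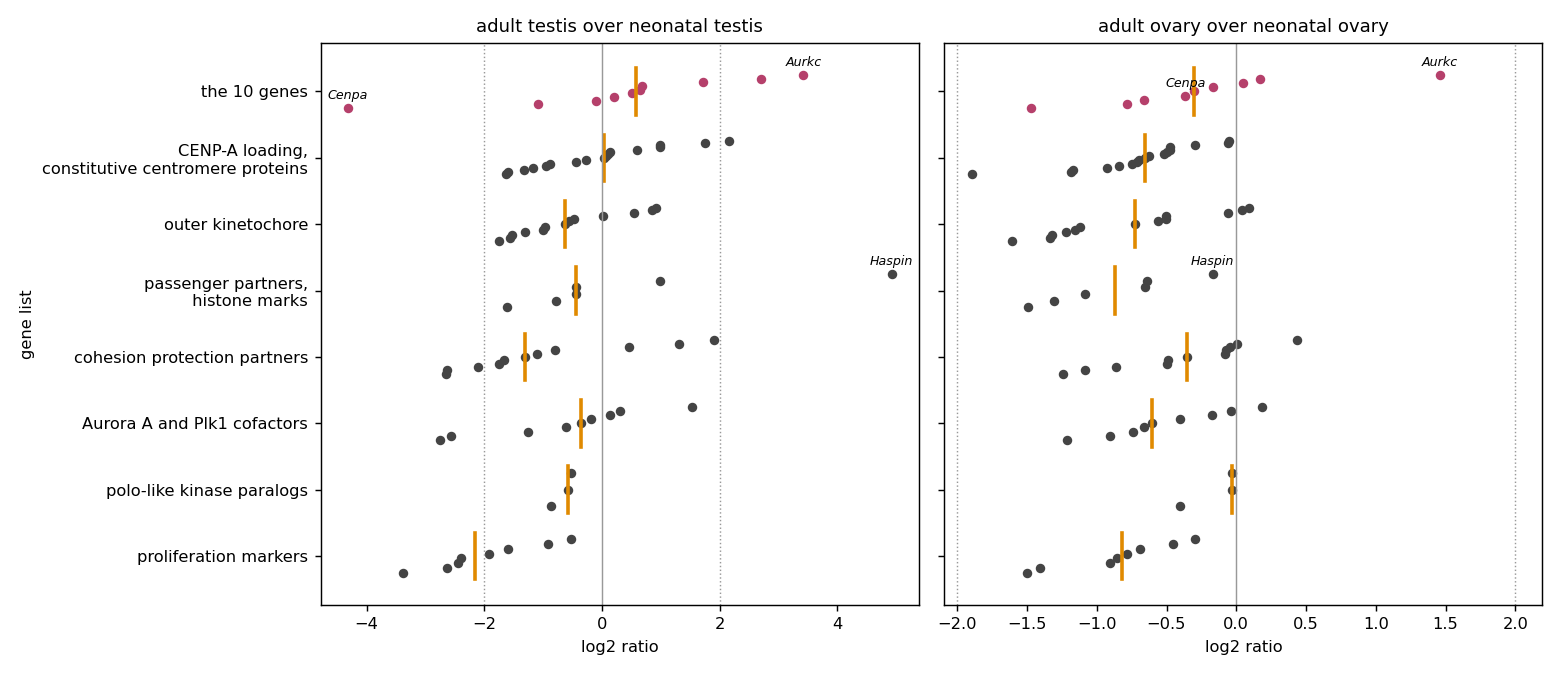
log2 ratios of the 10 genes (red) and of the genes of 7 partner lists (black) in adult testis over neonatal testis (left) and adult ovary over neonatal ovary (right). Each point is a gene above the floor on at least 1 of the 2 arrays, orange bars are list medians and dotted lines mark 4-fold; Cenpa at -4.32 and Haspin at 4.92 are the extremes on the left, and no point passes 4-fold on the right.

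In adult over neonatal ovary, no partner was called in any list, and most ratios were below 1. All 17 centromere genes (median -0.66), 11 of 13 outer kinetochore genes (median -0.73) and all 6 passenger partners (median -0.87) were lower in adult ovary. So were all 8 proliferation markers above the floor (median -0.82). Over all genes 53.3% were lower, with a median of -0.04. Of the 9 genes above the floor among the 10, 6 were lower, with a median of -0.30, and of these Cenpa, Sgo2a and Aurka changed sign with the scaling. With signals as deposited 14 of 17 centromere genes, 10 of 12 outer kinetochore genes, 5 of 5 passenger partners and 7 of 8 proliferation markers were lower in adult ovary. Cohesion protection partners were lower in 9 of 11 (median -0.35), but in 5 of 11 with signals as deposited (median 0.06). Kinase cofactors were lower in 8 of 9 and in 5 of 9 as deposited, and polo-like paralogs in 3 of 3 and in 0 of 2.

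Genes with the most similar pattern were found by the root mean square difference of log2 signals over the 6 arrays, after each gene's mean was subtracted, among 15281 other genes. For Cenpa they were Tspan9, C1qtnf7 and Dpysl2, at 0.15, 0.18 and 0.20. For Cenpe they were Recql4, Kif20a and Shcbp1, at 0.15, 0.17 and 0.22, and for Cenpf Dgkd, Nup133 and Sh3yl1, at 0.10, 0.12 and 0.14. For Aurka they were Lsm2, Mtbp and Nadk2, at 0.12, 0.14 and 0.14. Lsm2 had 412 in adult ovary and 2505 in adult testis, close to Aurka in shape. For Aurkc they were Tes, Pde8a and Pomt1, at 0.16, 0.18 and 0.19. Aurkc was at or next to the floor on the fetal and neonatal arrays, where these genes had 219 to 490. Its match therefore depends on where the floor lies. For Sgo2a they were Ankrd37, Mir99ahg and Cdc45, at 0.09, 0.10 and 0.10, for Plk1 Trmo, Zfp367 and Rif1, at 0.07 to 0.11, for Cenpc1 Mbd6, Lca5 and Cxxc1, at 0.09 to 0.11, and for Aurkb Paqr4, Msh6 and Scaf8, at 0.06 to 0.08. For Meikin, which is at the floor on 5 arrays, the nearest genes 4930519H02Rik, Kcnj9 and Tmem249 only share its adult testis signal of 492 to 495. Among the 10 genes the closest pair was Cenpe and Cenpf, at 0.23, with the brightest probe set of each. The other Cenpe probe set, lower in adult than in neonatal testis, was not used for these distances. These are descriptions over 6 arrays, with no test.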

How the data were processed

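The authors deposited 1 intensity value for each of 45101 probe sets on each array, on a linear scale. Biotin-labelled cRNA was made from total RNA, per the labels' protocols. The submitters' processing notes list GCOS version 1. No source used here gives the background correction or scaling.

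Arrays were scaled by 1 factor each, from 0.913 to 1.26, to a common 2% trimmed mean. The floor was the median of all scaled signals, 75.3. For each gene the brightest probe set on average was taken, among 34945 with 1 symbol. Python 3.11.15, numpy 2.4.6 and pandas 2.3.3 were used. The steps were tested on simulated arrays with less noise than the comparisons with adult testis. Changes were added there only to genes well above the floor, so that test does not cover ratios near the floor. The members, gene lists, promoter letters and the limit of 4 were chosen with earlier results of these data known. Named genes are the 10 members, the 3 genes nearest each in pattern, and list genes called in adult over neonatal testis or in fetal ovary over fetal testis. Cenpm, Cenpb, Incenp, Birc5, Cdca8, Sgo1, Plk4, Ppp2r5c and Ppp2r5e fall outside this rule and were named after their values were seen. Of 136 list genes 130 matched a gene on the array. RefSeq tables of GRCm38.p6 gave promoters and names. The number of arrays limits the precision, and with 1 array per group no comparison between 2 groups had a replicate, so none was tested. A fit of sex and age together over the 6 arrays was not run. The alternatives were 3 other scalings, 3 other treatments of dim signals and 2 other choices of probe set.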

Additional observations from a re-analysis of the deposited data

Results flagged for a closer look

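Several of the member results pointed opposite ways in 2 groups, and none of these differences was tested, since each group has 1 array. Differences are of log2 ratios, and both ratios exceeded the spread between probe sets of a gene. Adult over neonatal testis and adult over neonatal ovary differed by 2.13 for Cenpe (0.65 in testis and -1.47 in ovary) and by 1.46 for Cenpf (0.68 and -0.78). For Cenpe the second probe set gave -0.72 in testis and -1.14 in ovary, the same direction in both, and the second Cenpf probe set gave 1.33 and -0.25. Ovary over testis was 3.03 for Cenpa in adults, against -0.93 in neonates and -0.34 in fetuses, differences of 3.95 and 3.36. Ovary over testis for Cenpe was -1.84 in adults and 0.28 in neonates, a difference of -2.13 that restates the first value from the same 4 arrays. The second Cenpe probe set gave -0.47 and -0.05 there. Between neonates and fetuses (-0.52) the ratio of Cenpe differed by 0.81. The neonatal ratio, 0.284, barely exceeded its spread of 0.279. The second Cenpe probe set gave -0.05 in neonates and -0.52 in fetuses, the same direction at both ages.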

How the results depend on the processing

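Of 112 counts of called members under 8 alternatives, 101 stayed within 1.5 times the reported count. Most of the 112 counts come from the comparisons without adult testis, where 0 members were called and the counts stayed at 0. The exceptions lay in the 2 comparisons with adult testis. In adult ovary over adult testis the counts higher and lower were 1 and 2. They were 0 and 6 with scaling to the hybridization controls, 0 and 1 with the floor at the 75th percentile, and 0 and 1 with probe sets averaged per gene. All-gene calls there were 2166 higher and 1980 lower. They were 753 and 3474 with the controls, 787 and 1196 with that floor, and 1177 and 1624 with averaged probe sets. Without probe sets of the s, x and a kinds 0 members were higher there, and 1778 of all genes were. In adult testis over neonatal testis 2 members were higher and 1 lower, against 1939 and 1876 of all genes. All-gene calls higher were 4054 with the controls and 1172 with the floor at the 75th percentile. All-gene calls lower were 1060 with averaged probe sets and 1539 without the s, x and a kinds. There 6 members were higher with the controls, 0 with the floor at the 75th percentile, and 0 were lower with averaged probe sets and without the s, x and a kinds. The last setting leaves 9 members and removes the one Cenpa probe set above the floor, and averaging moves Cenpa to -1.44 by adding 2 probe sets at the floor. No called ratio reversed. Of 553 single ratios 462 moved by less than the spread between probe sets. In neonatal ovary over neonatal testis all-gene calls were 254 higher and 175 lower, 178 and 206 with signals as deposited and 474 and 83 with the controls. No paired analysis was possible because the groups share fewer than 2 replicate numbers, and pairing ovary with testis by age was not run. Cenpa was near the floor in adult testis, and Meikin and Aurkc were at the floor in neonatal testis, which limits their ratios.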

Other observations

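Probe sets of a gene also disagreed among partners of these genes in adult over neonatal testis, in genes named after their values were seen. Plk4, the kinase that starts centriole copying, was 1.49-fold lower with the brightest probe set (419 in adult and 623 in neonatal testis), but 4.19-fold higher with the second (1362 and 325) and at least 3.45-fold higher with the third. Ppp2r5c, a regulatory subunit of PP2A, was 3.77-fold higher with the brightest probe set (3784 and 1005). Of its other probe sets, 2 were higher, by at least 4.14-fold and 3.41-fold, 3 were lower, by 1.24-fold, 4.81-fold and 3.04-fold, and 1 was at the floor in both. Ppp2r5e, another such subunit, was higher with each of 4 probe sets above the floor, by 2.35-fold to 3.58-fold. Ppp2r5a and Ppp2r5d were lower, so regulatory subunits of PP2A went both ways in these 2 arrays. Sgo1 was lower with both probe sets, by 3.37-fold and by at least 3.17-fold. With arrays scaled to the hybridization controls the brightest Plk4 probe set was higher too, with a log2 ratio of 0.92, and Sgo1 was at -0.26.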
